A study of Canis lupus familiaris with 12 samples.

Results

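miR-31, miR-126 and miR-335 are 3 miRNAs known as suppressors of breast cancer metastasis, and they were followed here in a canine mammary gland tumor line from a metastatic lesion and in its tamoxifen (TAM)-resistant derivative. The members were taken by their exact names in the miRNA count table, cfa-miR-31, cfa-miR-126 and cfa-miR-335, and all 3 names were present among the 453 miRNAs listed. No other row carried one of these numbers, and the names do not say which arm of the precursor was counted. CHMm is a cell line isolated from a pleural effusion of a dog with a mammary tumor. CHMmTAM is the only resistant line derived from it that was sequenced, obtained over 10 months of rising TAM until the cells grew at 10 μM, kept at 10 μM for 1 month and then without drug for 1 week. Both lines were cultured in phenol-red-free medium with 10% steroid-depleted serum. Small RNA libraries carrying replicate numbers 1 to 3 were sequenced for each line, and no source states that they came from separate cultures, so the p-values measure only the spread between these libraries. The RNA-seq libraries, normal mammary cells and the line from the primary lesion were not analysed here.

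A miRNA is cut from a hairpin precursor and guides an Argonaute protein to messenger RNAs that pair with the bases near its 5′ end, which lowers their translation and stability. In human breast cancer, miR-31 restrains invasion and colonization through targets that include RHOA and the integrin ITGA5. miR-335 represses the transcription factor SOX4 and the matrix protein tenascin C. miR-126 is best known from endothelial and blood-forming cells, and in tumor cells it limits the recruitment of endothelial cells. In the RefSeq genes of the dog assembly UU_Cfam_GSD_1.0, MIR126 lies within the span of EGFL7, which encodes a protein secreted by endothelial cells. MIR335 lies within the span of MEST, an imprinted gene. MIR31 overlaps no other listed gene and sits between the interferon gene IFNE and MTAP, an enzyme of methionine salvage, on chromosome 11. The submitters' processing notes name another build, CanFam3.1, so no coordinates are given.

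All members were scarce in both lines. Together they held 261 of the 59463430 counts in the 6 libraries, between 3.86 and 5.22 CPM in a library (CPM is a miRNA's share of its library's counts on a common scale). The library totals ran from 7512659 to 12482211 counts, of which miR-21 alone took between 50.2% and 54.5%. At these totals 3 counts, taken as the smallest level that can be told from none, equal 0.240 to 0.399 CPM. This limit and the Wilson intervals given here cover counting error only. miR-335 was the most abundant of the members, miR-31 came next and miR-126 was at the edge of detection.

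**Figure D1:**
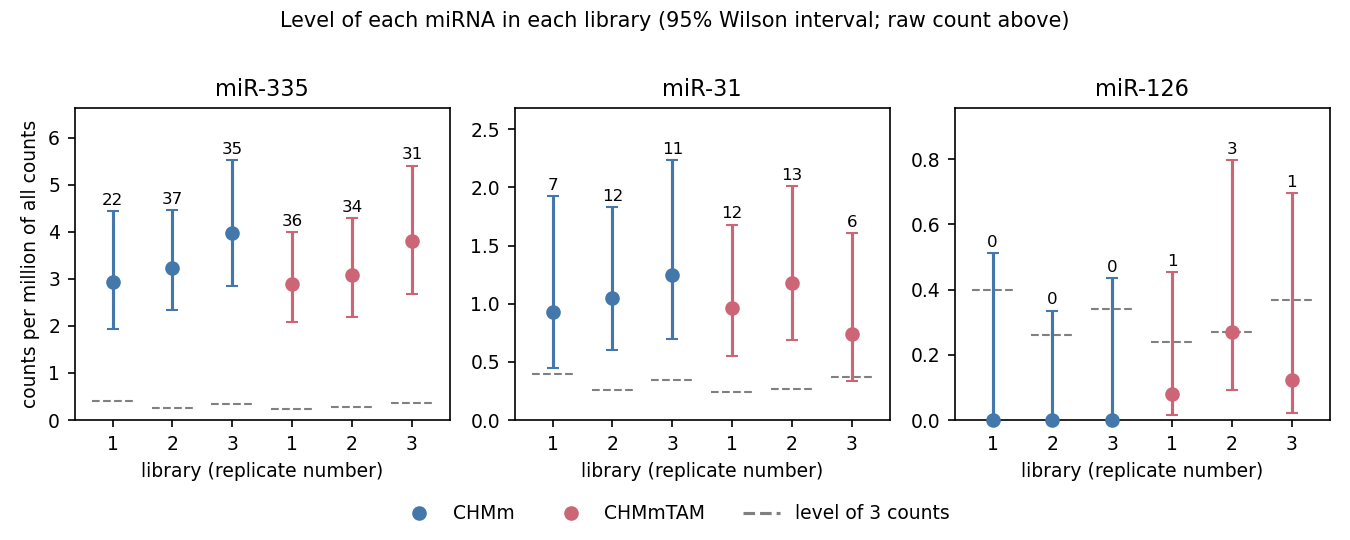
Level of miR-335, miR-31 and miR-126 in each library, as CPM of all counts on separate linear axes that start at 0. Points are single libraries of CHMm (blue) and CHMmTAM (red), bars are 95% Wilson intervals, the raw count stands above each bar and dashed lines mark the level of 3 counts. The bars of miR-335 and miR-31 overlap between the lines, and every point of miR-126 lies at or under the dashed line.

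miR-335, the miRNA that represses SOX4 and tenascin C, was counted 22, 37 and 35 times in CHMm replicates 1 to 3 and 36, 34 and 31 times in those of CHMmTAM. Scaled by the TMM method of edgeR, which corrects the totals for differences in composition, these were 3.01, 3.19 and 3.91 CPM in CHMm and 2.82, 3.08 and 3.89 CPM in CHMmTAM. The lowest library belonged to CHMmTAM and the highest to CHMm, and the lines overlapped. The mean of 3 libraries was 3.37 CPM with an SD of 0.479 in CHMm, and 3.27 CPM with an SD of 0.561 in CHMmTAM. The log2 fold change of CHMmTAM against CHMm was -0.08 (standard error 0.26, adjusted p = 0.859 by edgeR's quasi-likelihood test, Benjamini-Hochberg over 284 miRNAs). Its 95% interval ran from -0.59 to 0.43, which is from 0.665 to 1.35 times the CHMm level, so that a doubling or a halving lay outside it. Within a line, the 3 counts varied no more than counting error gives on average, with a chi-square per degree of freedom of 0.719 in CHMm and 0.697 in CHMmTAM.

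miR-31, the miRNA that acts on RHOA and ITGA5, was counted 7, 12 and 11 times in CHMm and 12, 13 and 6 times in CHMmTAM. The scaled levels were 0.957, 1.03 and 1.23 CPM in CHMm and 0.939, 1.18 and 0.754 CPM in CHMmTAM. CHMmTAM replicate 3 was the lowest library and CHMm replicate 3 the highest, and the lines again overlapped. The CHMm mean was 1.07 ± 0.141 CPM (SD, n = 3), against 0.957 ± 0.213 CPM (SD, n = 3) for CHMmTAM. The log2 fold change was -0.14 (standard error 0.47, adjusted p = 0.856 by the same test). With 61 counts in all, its 95% interval was wide, from -1.06 to 0.78, or 0.478 to 1.72 times the CHMm level. A doubling thus lay outside the interval, and a fall to 50% of the CHMm level lay just within it. The absence of a detectable difference for miR-31 is a statement about this depth.

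miR-126 was not counted in any CHMm library and was counted 1, 3 and 1 times in CHMmTAM replicates 1 to 3. No single library held more than 3 counts. CHMmTAM replicate 2 reached the limit set per library and no library rose above it, so no fold change is given. Pooled over the line, the 0 of 27776594 counts in CHMm allow a level of up to 0.108 CPM when 3 counts are taken as the limit, and of up to 0.138 CPM by the Wilson interval. The 5 of 31686836 counts in CHMmTAM give 0.158 CPM, with a 95% Wilson interval from 0.0674 to 0.369 CPM that includes both of these limits. The libraries of the lines did not overlap. Among the 284 tested miRNAs, which do not include miR-126, this was the case for 51.8%. The share among miRNAs as scarce as miR-126 was not computed. An exact two-sided permutation test gave p = 0.1, the smallest p that 3 against 3 libraries allow. With 5 counts in total, miR-126 failed the filter of at least 10 counts over all libraries. In a fit without that filter, edgeR's quasi-likelihood test gave an unadjusted p of 0.0514 and an adjusted p of 0.149 over 429 miRNAs. A difference of miR-126 between the lines was therefore not shown at this depth. In a cell line, fewer cells carrying a miRNA and less of it per cell cannot be told apart from such counts.

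Of the 3 members, 2 passed the filter and none of these differed between the lines, at an adjusted p below 0.05 or at an unadjusted p below 0.05 (0.766 for miR-335 and 0.760 for miR-31 by edgeR's quasi-likelihood test). DESeq2 and limma-voom also gave no call for either. Over all tested miRNAs, 125 of 284, or 44.0%, passed an adjusted p below 0.05, and 32, or 11.3%, also passed a log2 fold change above 1 (5.99%) or below -1 (5.28%). With only 2 members tested, their count cannot be set apart from these shares.

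The order of the members was the same in every library, with miR-335 above miR-31 and miR-31 above miR-126 in 6 of 6. This order needs no scaling, as it compares counts within a library. The log2 ratio of miR-335 to miR-31, with 0.5 added to each count, was 1.58, 1.58 and 1.63 in CHMm and 1.55, 1.35 and 2.28 in CHMmTAM. The CHMm libraries lay close together, while CHMmTAM replicate 3 was the highest and CHMmTAM replicate 2 the lowest of all 6. The mean ratio was 1.60 ± 0.0238 (SD, n = 3) in CHMm and 1.73 ± 0.487 (SD, n = 3) in CHMmTAM, a difference of 0.13 that was smaller than the spread within CHMmTAM (exact two-sided permutation p = 1, adjusted p = 1 over 3 pairs of members). The ratios of miR-335 and of miR-31 to miR-126 rest on the 0.5 added to counts of 0. For both of them the exact permutation p was 0.1, and 0.15 after adjustment over the 3 pairs.

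Among all listed miRNAs, miR-335 ranked 181 of 453 by its mean level in CHMm and 190 in CHMmTAM. miR-31 ranked 210 in CHMm and 215 in CHMmTAM. miR-126 was 1 of 57 miRNAs at 0 in CHMm and ranked 287 in CHMmTAM, level with 5 others. The median tested miRNA reached 22.3 CPM in CHMm, above both tested members. Levels of different miRNAs are compared here as CPM because mature miRNAs are of similar length. How well each sequence is captured in a library was not tested.

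**Figure D2:**
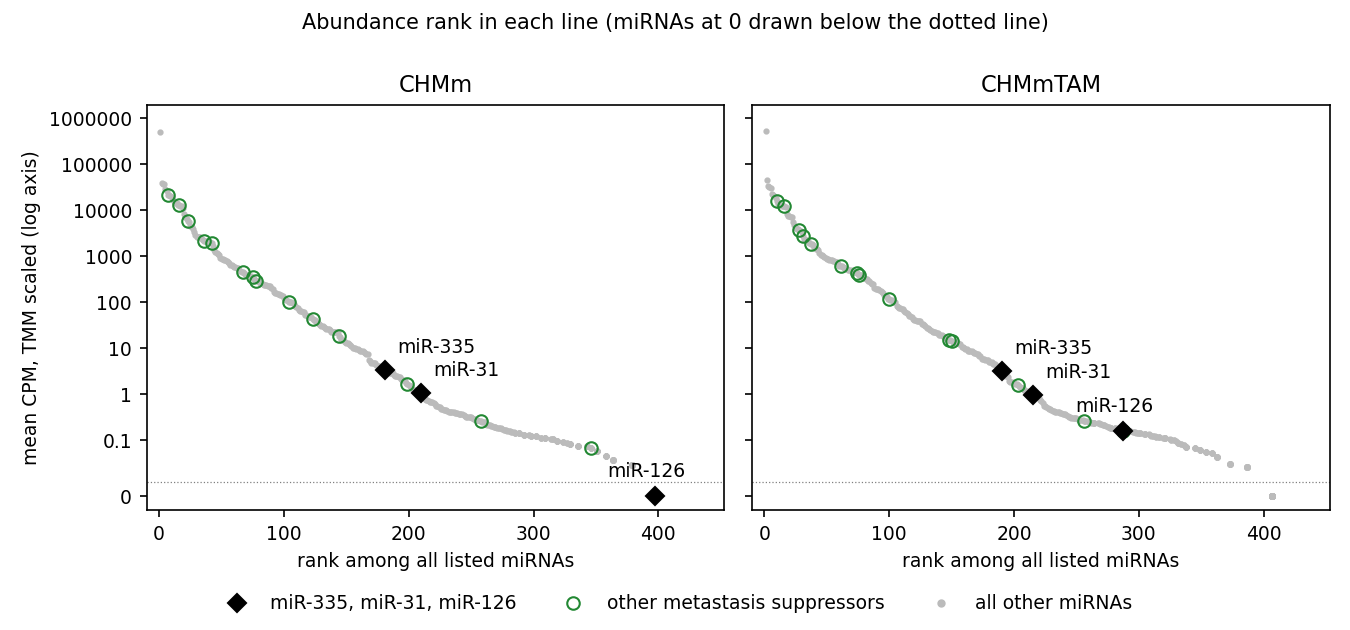
Mean level (TMM-scaled CPM, log axis) against abundance rank for all 453 listed miRNAs in CHMm (left) and CHMmTAM (right), with miRNAs at 0 drawn below the dotted line. Black diamonds are miR-335, miR-31 and miR-126, green circles are the other metastasis suppressors and grey points are the remaining miRNAs. miR-335 and miR-31 keep nearly the same place in both panels, at ranks 181 and 190 and at ranks 210 and 215, and in CHMmTAM the circle of miR-206 lies under the diamond of miR-126.

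In the order of levels in CHMm, miR-31 stood between miR-1836 at 0.950 ± 0.126 CPM (SD, n = 3) and miR-486, a miRNA of red blood cell precursors, at 1.09 ± 0.297 CPM (SD, n = 3). miR-335 stood between miR-8789 at 3.16 ± 0.378 CPM and the muscle miRNA miR-1 at 3.40 ± 0.410 CPM, and none of these neighbours differed from the member next to it by more than their spread. These neighbours were named after their values were seen. miR-486 had 10, 9 and 10 counts in CHMm and 63, 72 and 41 counts in CHMmTAM, a log2 fold change of 2.40 (adjusted p = 2.73e-14 by edgeR's quasi-likelihood test). miR-1 had 28, 35 and 30 counts in CHMm and 188, 192 and 107 counts in CHMmTAM, a log2 fold change of 2.19 (adjusted p = 6.57e-30 by the same test). miR-8789 also rose, by 0.76 on the log2 scale (adjusted p = 0.00283 by the same test). miR-1836 had a log2 fold change of -0.25 (adjusted p = 0.735 by the same test). The neighbours were matched to the members on their CHMm level only. In CHMmTAM, miR-8789 and miR-1 had means of 5.54 and 15.2 CPM, against 3.27 CPM for miR-335. miR-486, the only called neighbour of miR-31, had 5.54 CPM there, against 0.957 CPM for miR-31. Their calls therefore do not show what change could be detected at the members' own counts. These neighbours include no called fall.

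The miRNAs whose profile over the 6 libraries was most like that of miR-31 were miR-99a, miR-141 and miR-193a. They were found among 117 miRNAs of at least 50 CPM by the root mean square distance of the centred log2 CPM, which was 0.13, 0.14 and 0.15. For miR-335 they were miR-339, miR-95 and miR-365, at distances of 0.15, 0.16 and 0.16. None of these 6 passed an adjusted p of 0.05 between the lines, with log2 fold changes from -0.13 to 0.11. The distance includes the difference between the lines, so small changes follow from how the 6 were picked. Pearson's r over the 6 libraries was 0.91, 0.83 and 0.81 for the first set and 0.51, 0.55 and 0.42 for the second, as a description of libraries that share depth and line. Likeness to a member with few counts also follows its counting error.

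The scarcity of the members was not shared by most other miRNAs known as breast cancer metastasis suppressors. A list of 14 such miRNAs, all present in the table, held 13 that passed the filter. It includes miR-200a, miR-200b, miR-200c, miR-141, miR-429 and miR-205, which are also used below as markers of epithelial cells. miR-148a, which silences the methyltransferase DNMT1, was the most abundant, at 21955 ± 825 CPM (SD, n = 3) in CHMm, 6518 times the level of miR-335. miR-200c, which restrains the epithelial-mesenchymal transition through ZEB1, had 12807 ± 504 CPM in CHMm, 3802 times the level of miR-335. Only 3 of the 14 lay below miR-335 in CHMm, namely miR-193b at 1.67 CPM, miR-145 at 0.255 CPM and miR-206. miR-206 was found as a metastasis suppressor together with miR-126 and miR-335. It had 0, 1 and 1 counts in CHMm and 1, 3 and 1 counts in CHMmTAM, at or under 3 counts in every library like miR-126.

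Of the 13 tested suppressors in that list, 5 were called higher and 3 lower in CHMmTAM at an adjusted p below 0.05, against 25.4% higher and 18.7% lower of all tested miRNAs. Under upper-quartile scaling these became 1 higher and 6 lower, and without CHMm replicate 1 or without CHMmTAM replicate 2 there were 3 higher, so that the balance of directions depends on the scaling and on single libraries. Their median log2 fold change was -0.07, beside 0.06 over all tested miRNAs. This median is the value of miR-193b and rests on 11 to 23 counts per library. miR-146b, which dampens NF-κB signalling, fell most, with a log2 fold change of -1.63 from 43.9 ± 1.82 CPM to 14.3 ± 1.57 CPM. The epithelial miRNA miR-205 and miR-148a fell by 0.66 and 0.47 on the log2 scale. The p53 target miR-34a rose by 0.46. All 4 had an adjusted p of 1.96e-09 or lower by edgeR's quasi-likelihood test.

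A second list held 14 miRNAs with a reported role in promoting metastasis, of which 11 were matched by name and tested. Here 5 were called higher and 3 lower in CHMmTAM, against 25.4% higher and 18.7% lower of all tested miRNAs. The highest and lowest of these were miR-10b, which acts downstream of TWIST1, at a log2 fold change of 1.43, and miR-221 at -1.52. miR-222, which shares the targets of miR-221, was at -1.36, and miR-181a was at 1.26. The median of the list was 0.47, which is the value of miR-122 and rests on 13 to 39 counts per library. Without CHMm replicate 3 it was 0.21 and without CHMmTAM replicate 3 it was 0.28. Both lists thus held miRNAs called in either direction. They also held uncalled ones with log2 fold changes as close to 0 as those of miR-335 and miR-31, such as miR-200c at -0.06 and miR-9 at -0.06.

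**Figure D3:**
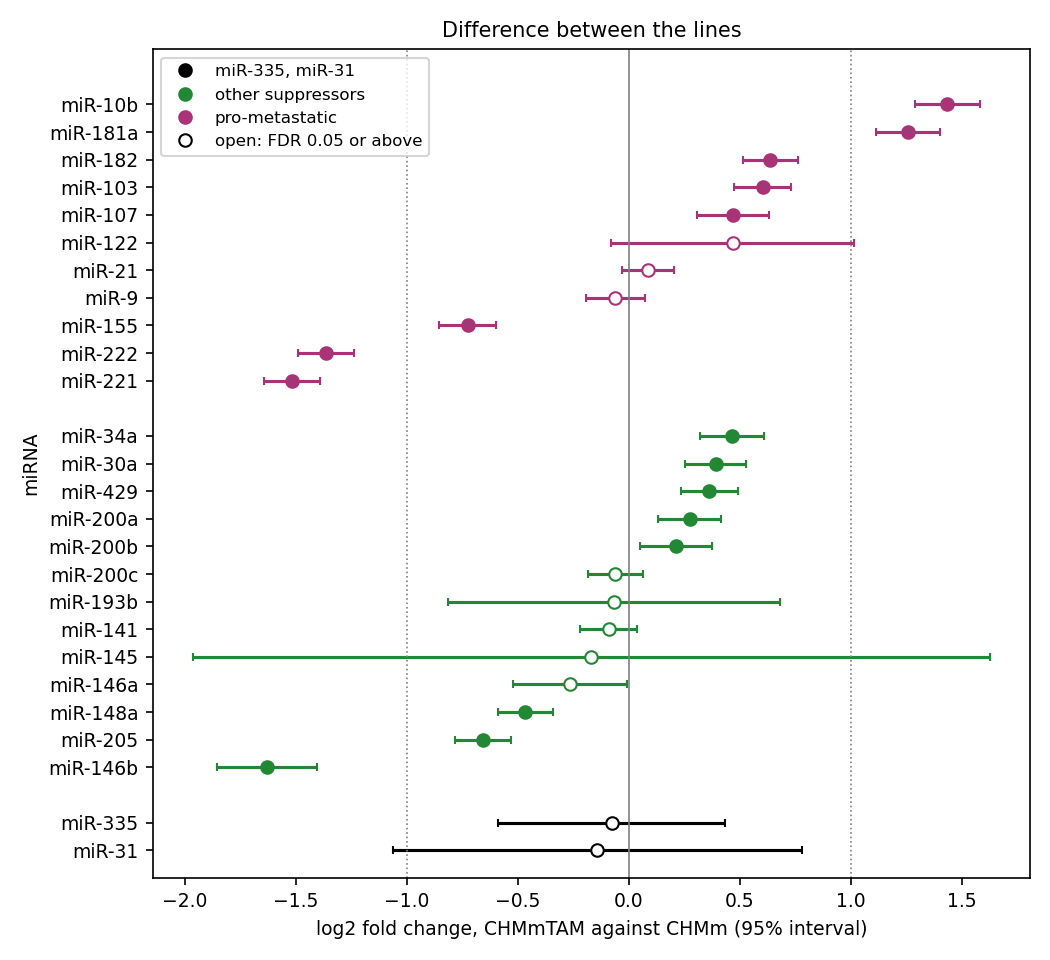
Log2 fold change of CHMmTAM against CHMm with 95% intervals from edgeR's quasi-likelihood fit on 3 libraries of each line, for miR-335 and miR-31 (black), the tested other suppressors (green) and the tested pro-metastatic miRNAs (purple). Filled points have an adjusted p below 0.05 over all 284 tested miRNAs, and dotted lines mark log2 fold changes of -1 and 1. The intervals of miR-335 and miR-31 include 0 and are wider than those of the abundant miRNAs such as miR-221 and miR-148a, while that of the scarce miR-145 is wider still.

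The libraries carried miRNAs typical of epithelial cells, with all 7 of miR-200a, miR-200b, miR-200c, miR-141, miR-429, miR-203 and miR-205 at a mean of 101 CPM or more in each line and a summed level per library of 25124 to 26471 CPM in CHMm and 22450 to 23736 CPM in CHMmTAM. Because miR-126 also marks endothelial and blood-forming cells, the markers of blood cells are given beside it. miR-142, miR-223, miR-451, miR-150, miR-144 and both entries of miR-486 summed to 6.04 to 8.07 CPM in CHMm and to 17.3 to 19.9 CPM in CHMmTAM. Of the 7 entries 5 were tested and 3 were called higher, where 25.4% of all tested miRNAs were called higher and 18.7% lower. The 3 were miR-142 and both entries of miR-486 (miR-486 and miR-486-3p), while miR-223 and miR-451 were not called. miR-150 and miR-144 had at most 3 counts in any library. Mesenchymal markers (miR-143, miR-145, miR-199 and miR-214) summed to 39.7 to 47.6 CPM in CHMm and 23.8 to 28.8 CPM in CHMmTAM. Of these 4, 1 was called lower, beside 18.7% of all tested miRNAs. Of 8 muscle markers, which include miR-206, 5 were tested and all 5 were called higher, beside 25.4% of all tested miRNAs. The 5 were miR-1, miR-133a, miR-133b, miR-133c and miR-499. Whether the miR-133 entries share reads is not given in the sources used here, so they may not be separate calls. The summed level of the 8 markers was 279 to 318 CPM in CHMm and 431 to 444 CPM in CHMmTAM. Most of it was miR-499, and miR-208a was at 0 in every library. The part of such cells in the counts of miR-126 was not tested.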

How the data were processed

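The deposited file holds unnormalized read counts for mature canine miRNAs, with a column for each small RNA library. Per the labels, total RNA was extracted, miRNA was purified by kit and sequencing was on HiSeq. The submitters' processing notes name HISAT2 2.0.4, BWA and the build CanFam3.1 without saying what each was used for. The miRNA database, adapter trimming and treatment of reads fitting several miRNAs are not given in the sources used here, and any of them could move counts of miRNAs as scarce as these.

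Libraries were assigned to lines by their titles. The comparison used edgeR 4.0.16 in R 4.3.3, with miRNAs of at least 10 counts in total, TMM factors and the quasi-likelihood test without a block, and false discovery rates over 284 miRNAs. The fit was also run on simulated counts with the same relative spread for all miRNAs, and no result given here rests on that run. Standard errors came from the coefficient and its F statistic. Libraries of 1 line differed by more than sampling noise over all miRNAs (26.3 to 85.8 for the chi-square divided by its degrees of freedom), so none was counted as a duplicate. Exact tests and shares used Python 3.11.15 with SciPy 1.17.1, and alternatives used DESeq2 1.42.0 and limma 3.58.1.

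The members, gene lists and alternatives were chosen with earlier results of these data known. Named miRNAs were the members, those most like each tested member, up to 4 of each list with the largest called change, and miR-206. The cell type markers were named as a fixed list. Neighbours in level and the list members miR-200c, miR-9, miR-193b, miR-145 and miR-122 were named after their values were seen. No mature sequences were used here, so the part of that rule on shared seeds was not applied. All 3 members were matched by name in the RefSeq genes.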

Additional observations from a re-analysis of the deposited data

How the results depend on the processing

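miR-31 was not called and had a negative log2 fold change in all 17 alternatives, from -0.39 to -0.02. They reuse counts of the same libraries, so the shared sign is not separate evidence of a fall. miR-335 was never called in its 18 alternatives, and its log2 fold change ran from -0.32 to 0.049. It turned positive without CHMm replicate 3 (0.035) and without CHMmTAM replicate 1 (0.049), and leaving out each library in turn gave -0.18 to 0.049. The lowest adjusted p was 0.537 for miR-31 and 0.336 for miR-335, both under upper-quartile scaling, which moved the median of all tested miRNAs from 0.06 to -0.18. Relative to that median, miR-31 was at -0.20 before and -0.21 after, and miR-335 at -0.14 in both. With the replicate number as a block, miR-31 was at -0.13 and miR-335 at -0.047, 31 miRNAs passed both the adjusted p and the fold threshold in place of 32, no member was called and the counts of both lists did not change. The deviations of same-numbered libraries had correlations of 0.06, 0.46 and -0.31 for replicates 1 to 3. CHMm replicate 1 went best with CHMmTAM replicate 3 (0.42). Whether the numbers pair the libraries was not tested. The difference of miR-126 was 0.102 to 0.199 CPM over its alternatives. The exact permutation p was 0.1 with all libraries and 0.2 with a library left out, each the smallest that its number of libraries allows. The difference in the log2 ratio of miR-335 to miR-31 ran from -0.15 to 0.31 over single libraries left out and was negative only without CHMmTAM replicate 3. Under the filter of 10 counts in every library miR-31 has no value, and miR-126 was fitted only without a filter.

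Upper-quartile scaling gave 41 miRNAs higher and 100 lower in place of 72 and 53. The test against a 2-fold change gave 21 in all, 11 higher and 10 lower. In the list of other suppressors, upper-quartile scaling gave 1 higher and 6 lower with a median of -0.31, RLE factors 5 lower, and the 2-fold test 0 higher and 1 lower. The number higher was 3 to 5 with a library left out. In the pro-metastatic list, the 2-fold test left 2 higher, and the median was 0.40 under RLE factors, 0.23 under upper-quartile scaling, 0.41 without the 10 most abundant miRNAs and 0.41 in DESeq2, with 0.21 to 0.52 when a library was left out. The causes were not tested. Depth limits all of these results on the members.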
